A study of Mus musculus with 8 samples.

Results

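The 9 genes described here encode the enzymes and binding proteins that write, copy, read and remove DNA methylation, namely Dnmt1, Dnmt3a, Dnmt3b, Uhrf1, Tet1, Tet2, Tet3, Mbd2 and Tdg. They were matched to the count table by gene symbol, and all 9 were found among its 28239 symbols. In mammals DNMT3A and DNMT3B methylate cytosines of unmethylated CpG dinucleotides. UHRF1 recognises the CpGs that are methylated on one strand after replication and brings in DNMT1, which copies the mark to the new strand. TET enzymes oxidise methylcytosine, TDG excises the oxidised bases so that repair can put back plain cytosine, and MBD2 binds methylated CpGs and recruits the NuRD repressor complex. In regulatory T cells (Tregs) an enhancer inside the Foxp3 gene is methylated while the gene is off and loses its methylation through TET activity when Foxp3, the defining transcription factor of these cells, becomes stably expressed.

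The question was whether the mRNA of these genes differed between Tregs of Alox15-deficient and WT mice early in differentiation. Naive CD4+ T cells of the C57BL/6 background came from spleen, with 4 mice per genotype (WT or Alox15-/-), and were cultured for 2 days with IL-2, TGF-β and beads carrying antibodies to CD3 and CD28, so that both groups received the same treatment. The study's methods give female and male mice of 10 to 12 weeks, with C57/Black6 animals from Charles River and Alox15-deficient animals from The Jackson Laboratory, and supplier and genotype therefore cannot be told apart. RNA was profiled with MACE-seq, which sequences 1 tag near the 3′ end of a transcript. The labels name a small RNA kit instead of the MACE-Seq Kit of the methods, and they do not say how separately the cultures of a group were handled, so the p-values measure the spread between these libraries, which may be partly technical. DNA methylation itself was not measured in these libraries. In bulk RNA, fewer cells of a type and less RNA per cell cannot be told apart.

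The total count was 3723151 to 6952596 in the 4 libraries labelled Alox15-/- and 4810125 to 9538962 in the 4 labelled WT. The targeted gene went against its label. Alox15 (ENSMUSG00000018924.6, minus strand of chromosome 11, 70344152 to 70352031, GRCm38) had 292, 255, 337 and 454 reads in the libraries labelled Alox15-/- and 12, 16, 77 and 43 reads in the WT libraries. As CPM, here the read count relative to the library's total over the tested genes after TMM scaling by edgeR, the libraries labelled Alox15-/- had 67.2 ± 3.18 (SD, n = 4) and the WT libraries 5.31 ± 3.61 (SD, n = 4). The log2 fold change was 3.65 with a standard error (SE) of 0.299 (adjusted p = 1.08e-05, edgeR). The groups did not overlap, and a two-sided exact permutation test gave p = 0.0286, the smallest value that 4 against 4 libraries allow. The deleted part of the gene is not given in the sources used here, so it is not known whether these 3′ tags lie outside it and leave the deletion unchecked. All directions below therefore refer to the libraries labelled Alox15-/-.

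The T cell marker Cd3e was at 249 to 296 CPM in all 8 libraries, and Cd4 was at 210 to 297 CPM in the libraries labelled Alox15-/- and 328 to 352 in WT (log2 fold change -0.32, adjusted p = 0.357, edgeR). Of the 6 T cell genes examined, edgeR called 0 and 3 had estimates on either side of 0, with Cd3g highest at 0.31 (unadjusted p = 0.00742, adjusted p = 0.296, no overlap) and Trac and Lck both at -0.19. Summed markers of 5 other kinds of cell were above every WT library in each library labelled Alox15-/-. The summed level ran from 928 to 3514 CPM against 55.2 to 143 in WT for 9 erythroid genes, from 115 to 349 against 28.7 to 49.1 for 8 mast cell and basophil genes, from 21.1 to 74.1 against 1.25 to 10.4 for 7 eosinophil genes, from 47.9 to 386 against 13.2 to 18.5 for 10 myeloid genes, and from 106 to 204 against 58.3 to 71.2 for 9 NK and γδ T cell genes. Each of these 5 sums gave an exact permutation p of 0.0286 (0.0514 after Benjamini–Hochberg adjustment over 9 sums), and edgeR called 5 of 6 tested erythroid, 8 of 8 mast cell and basophil, 2 of 2 eosinophil, 6 of 7 myeloid and 4 of 7 NK and γδ T cell genes, all higher. The 4 of the last list were the γδ receptor genes Trdc, Tcrg-C1, Tcrg-C2 and Tcrg-C4, and none of its NK genes was called. Nkg7, Eomes and Klrk1 had log2 fold changes of 0.67, 0.66 and 1.06. Their unadjusted p was 0.0119, 0.0360 and 0.00911 and their adjusted p 0.375, 0.591 and 0.324 (edgeR). The groups overlapped for each of these, and Ncr1 and Klrb1c were below the filter. No gene of these lists that the table holds was at 0 in all 8 libraries. The sums of 6 B cell genes (p = 0.971, exact permutation) and of the 2 CD8 genes (p = 0.0857, exact permutation, CD8 lower) overlapped between the groups. The part of these cells in the values of the 9 enzymes was not tested.

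None of the 9 enzymes passed the test between the groups. All 9 passed the filter on low counts (at least 2 CPM, before TMM scaling and relative to the total count, in at least 4 libraries), and edgeR's quasi-likelihood test called 0 of them at an adjusted p under 0.05, where it called 158 of 12700 tested genes (1.24%). At an unadjusted p under 0.05 it found 0 of 9, beside 996 of all tested genes (7.84%), and DESeq2 and limma-voom also found 0 of 9 by either rule. The log2 fold changes ran from -0.25 for Tdg to 0.39 for Tet2, with 7 estimates below 0 and 2 above, and their median was -0.069 beside -0.0075 for all tested genes. All 9 estimates lay between the 5th and the 95th percentile of all tested genes, which were -0.32 and 0.45.

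**Figure D1:**
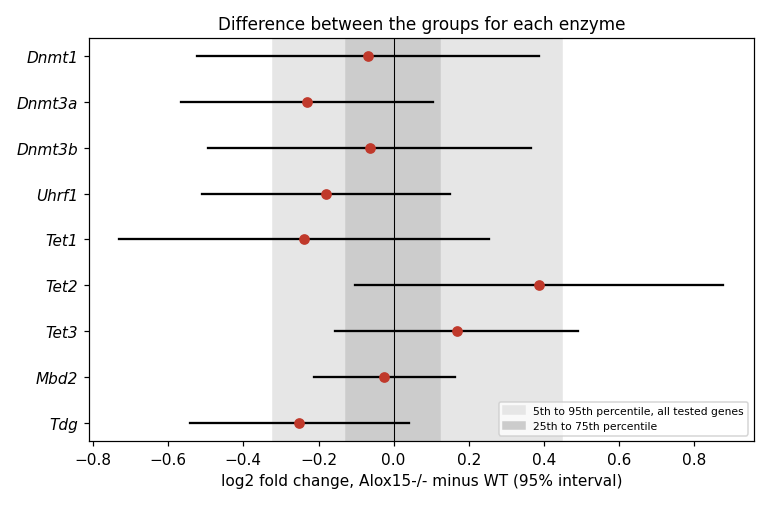
Log2 fold change between the libraries labelled Alox15-/- and WT (x axis, libraries labelled Alox15-/- minus WT, n = 4 per group) for each of the 9 enzymes (y axis), with points for edgeR estimates and lines for their 95% intervals. The light and dark grey bands span the 5th to 95th and the 25th to 75th percentile of all 12700 tested genes. All 9 lines cross 0, and the longest are those of Tet1 and Tet2.

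Dnmt1, the maintenance methyltransferase (ENSMUSG00000004099.16, minus strand of chromosome 9, 20907209 to 20959888), was at 126, 139, 104 and 131 CPM in the libraries labelled Alox15-/- 1 to 4 and at 105, 128, 207 and 80.0 CPM in WT 1 to 4. The WT group thus held both the highest and the lowest library, and the 4 libraries labelled Alox15-/- lay between them. The log2 fold change was -0.069 (SE 0.214, 95% interval -0.52 to 0.39, adjusted p = 0.967, edgeR), and the gene rested on 381 to 2053 reads per library. Its coefficient of variation was 42.2% in WT, where counting alone gives 3.68%, and 12.1% in the libraries labelled Alox15-/-. With 1 library left out at a time the estimate ran from -0.24 without WT 4 to 0.26 without WT 3 (adjusted p = 0.768 and 0.679, edgeR).

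Uhrf1, the factor that recruits DNMT1 to freshly replicated DNA (ENSMUSG00000001228.14, plus strand of chromosome 17, 56303321 to 56323486), was at 142, 190, 141 and 141 CPM in the libraries labelled Alox15-/- and at 172, 177, 221 and 122 CPM in WT. As for Dnmt1, WT 3 was the highest and WT 4 the lowest of the 8 libraries. The 3 libraries labelled Alox15-/- 1, 3 and 4 were nearly level, and replicate 2 stood above them. edgeR gave a log2 fold change of -0.18 (SE 0.155, 95% interval -0.51 to 0.15, adjusted p = 0.839). This estimate was -0.035 without WT 3, -0.29 without the library labelled Alox15-/- 2 and -0.31 without WT 4, where the unadjusted p was 0.0289 and the adjusted p 0.491 (edgeR).

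E2F factors are known to drive many genes that replicating cells use. The RefSeq promoters of 8 of the 9 genes (GRCm38.p6, 250 bases before to 50 after an annotated start, with Mbd2 not searched) were searched for the E2F-like letters TTTCCCGC, TTTGGCGC, TTTCGCGC and TTTGCCGC on both strands, and the windows with a match are shown so that the letters can be read in place. Dnmt1 held 2 matches at the last of its 3 annotated starts (chr9:20952574-20952873, minus strand), which begin 219 bases before and 33 bases after the start. Uhrf1 held 1 at the last of its 2 starts (chr17:56304063-56304362, plus strand), 185 bases before it. In the sequences, written 5′ to 3′ on the gene's strand, capitals mark the matched letters, which do not overlap each other.
Dnmt1: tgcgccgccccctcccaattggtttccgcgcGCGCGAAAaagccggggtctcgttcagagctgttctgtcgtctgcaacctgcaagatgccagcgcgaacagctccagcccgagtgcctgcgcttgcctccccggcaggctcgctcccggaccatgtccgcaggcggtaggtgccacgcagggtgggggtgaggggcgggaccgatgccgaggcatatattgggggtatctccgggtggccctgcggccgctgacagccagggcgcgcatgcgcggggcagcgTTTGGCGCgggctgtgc
Uhrf1: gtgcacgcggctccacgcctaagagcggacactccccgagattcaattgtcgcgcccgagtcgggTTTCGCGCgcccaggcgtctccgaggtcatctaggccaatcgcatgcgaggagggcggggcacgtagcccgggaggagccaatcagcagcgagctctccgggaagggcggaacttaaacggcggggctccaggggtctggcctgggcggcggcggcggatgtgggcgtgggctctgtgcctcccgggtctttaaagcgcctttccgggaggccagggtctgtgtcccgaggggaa

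Among all 32851 RefSeq promoters of this length, 744 (2.26%) held at least 1 of these letter strings, and the other 11 windows of these 8 genes held none. Both printed windows had 33 CpG dinucleotides, more than 91.4% of promoters, whose median was 7. The window of Tet2 had 57, more than 99.8% of promoters. These matches describe letters in fixed windows and are not measurements of binding or methylation.

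Neither de novo methyltransferase was called. Dnmt3a (ENSMUSG00000020661.15, plus strand of chromosome 12, 3806007 to 3914443) was at 65.9, 41.3, 44.4 and 52.9 CPM in the libraries labelled Alox15-/- and at 51.3, 65.3, 50.8 and 73.7 CPM in WT. The groups overlapped, with the library labelled Alox15-/- 1 among the higher WT values. Its log2 fold change was -0.23 (SE 0.158, 95% interval -0.57 to 0.11, adjusted p = 0.784, edgeR), larger in size than that of 76.0% of tested genes. Without WT 4 it was -0.12 (unadjusted p = 0.449, edgeR) and without the library labelled Alox15-/- 2 it was -0.14. Without the library labelled Alox15-/- 1 it was -0.37, at an unadjusted p of 0.0315 and an adjusted p of 0.594 (edgeR).

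Dnmt3b (ENSMUSG00000027478.15, plus strand of chromosome 2, 153649450 to 153687730) was at 11.3, 8.14, 8.32 and 13.4 CPM in the libraries labelled Alox15-/- and at 10.03, 9.13, 12.7 and 11.5 CPM in WT, from 30 to 126 reads per library. The highest and the lowest library both belonged to the group labelled Alox15-/-. The estimated log2 fold change was -0.064 (SE 0.202, 95% interval -0.49 to 0.37, adjusted p = 0.967, edgeR). It was 0.025 without the library labelled Alox15-/- 2, 0.038 without that labelled Alox15-/- 3 or without WT 3, and -0.23 without that labelled Alox15-/- 4.

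The TET dioxygenases, which need 2-oxoglutarate to oxidise methylcytosine, did not share a direction. Tet1 (ENSMUSG00000047146.17, minus strand of chromosome 10, 62804570 to 62908996) rested on only 17 to 52 reads per library and was at 5.79, 4.61, 4.16 and 5.75 CPM in the libraries labelled Alox15-/- and at 5.64, 5.93, 5.24 and 7.56 CPM in WT. Its groups overlapped, and its spread within a group (16.2% and 16.6%) was close to what counting alone gives (20.4% and 15.9%). The log2 fold change was -0.24 (SE 0.231, 95% interval -0.73 to 0.25, adjusted p = 0.858, edgeR), and the estimate was -0.13 without WT 4.

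Tet2 (ENSMUSG00000040943.12, minus strand of chromosome 3, 133463679 to 133545139) was at 27.8, 17.9, 11.2 and 17.6 CPM in the libraries labelled Alox15-/- and at 12.5, 13.1, 12.9 and 18.3 CPM in WT. The libraries labelled Alox15-/- 1 and 3 were the highest and the lowest of all 8, and 3 of the 4 WT libraries were nearly level. Its log2 fold change of 0.39 was the largest in size of the 9 genes (SE 0.230, 95% interval -0.10 to 0.88, adjusted p = 0.748, edgeR) and exceeded that of 90.4% of tested genes. Without the library labelled Alox15-/- 1 the estimate was 0.14, without that labelled Alox15-/- 3 it was 0.58 and without WT 4 it was 0.52, the last 2 at unadjusted p of 0.0148 and 0.0391 and adjusted p of 0.518 and 0.548 (edgeR).

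Tet3 (ENSMUSG00000034832.15, minus strand of chromosome 6, 83362373 to 83459084) was at 61.3, 45.1, 37.6 and 42.4 CPM in the libraries labelled Alox15-/- and at 41.9, 33.6, 46.6 and 42.8 CPM in WT. The library labelled Alox15-/- 1 was the highest here as for Tet2, and the other 7 values were mixed between the groups. The difference on the log2 scale was 0.17 (SE 0.152, 95% interval -0.16 to 0.49, adjusted p = 0.845, edgeR). It was 0.013 without the library labelled Alox15-/- 1, 0.083 without WT 2 and 0.27 without the library labelled Alox15-/- 3.

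Mbd2, the methyl-CpG reader (ENSMUSG00000024513.16, plus strand of chromosome 18, 70568189 to 70626131), was at 159, 164, 169 and 161 CPM in the libraries labelled Alox15-/- and at 158, 173, 165 and 169 CPM in WT. It had the smallest spread of the 9 genes, with coefficients of variation of 2.55% and 4.06% beside 3.58% and 3.05% from counting alone. The log2 fold change was -0.025 (SE 0.088) and its 95% interval of -0.21 to 0.16 was the narrowest of the 9, which on a linear scale is 0.863-fold to 1.12-fold (adjusted p = 0.971, edgeR).

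Tdg, the glycosylase that removes oxidised methylcytosine (ENSMUSG00000034674.18, plus strand of chromosome 10, 82629828 to 82650799), was at 21.002, 22.0, 25.3 and 25.3 CPM in the libraries labelled Alox15-/- and at 25.9, 25.8, 27.3 and 33.4 CPM in WT. It was the only one of the 9 whose groups did not overlap (11.1% of members, beside 5.25% of all tested genes in either direction and 2.51% in this one), and the gap between the highest library labelled Alox15-/- and the lowest WT library was under 1 CPM. The log2 fold change was -0.25 (SE 0.137, 95% interval -0.54 to 0.041, unadjusted p = 0.0870, adjusted p = 0.715, edgeR), and the estimate was -0.16 without WT 4. The groups also stayed apart with scaling by total count or by DESeq2 size factors and overlapped with upper-quartile scaling. The 3′ end of Tdg lies within Glt8d2 on the other strand, whose own row held 1 to 8 reads, and whether the counting used strand is not given in the sources used here.

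**Figure D2:**
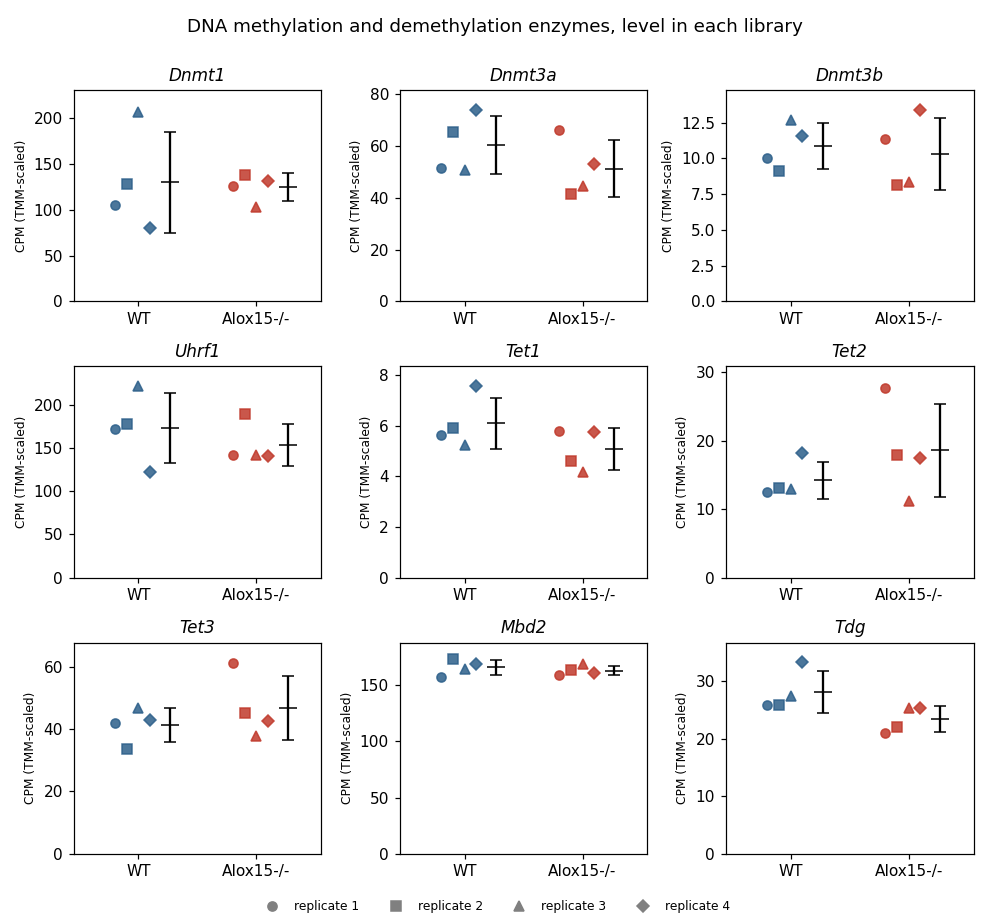
Level of each of the 9 enzymes (y axis, TMM-scaled CPM, each panel starting at 0) in the 4 WT libraries (blue) and the 4 libraries labelled Alox15-/- (red), with marker shapes for replicates 1 to 4, and mean ± SD in black. Tdg is the only panel without overlap between the groups, Mbd2 is nearly flat, and WT 3 stands highest for Dnmt1 and Uhrf1.

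Apart from Tdg and Glt8d2, a search with the final 500 bases of each of the 9 transcripts found no other annotated gene with 200 or more aligned bases at 90% identity or above. Antisense rows that overlap Dnmt3b, Tet2 and Tet3 held 0 to 4 reads per library.

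Uhrf1 varied together with genes of DNA replication over the 8 libraries, whereas for Dnmt1 such a relation rested on WT 3 and WT 4. The sum of 21 S phase genes, such as the replicative helicase subunits Mcm2 to Mcm7, was 2845 to 3544 CPM in the libraries labelled Alox15-/- against 2728 to 4002 CPM in WT (p = 0.429, two-sided exact permutation test), and 0 of the 21 genes were called by edgeR or had an unadjusted p under 0.05. Over the 8 libraries, on log2(CPM + 1), Uhrf1 followed this sum with Pearson's r of 0.943 and Spearman's rho of 0.905, and r was 0.852 without WT 3 and WT 4, the 2 libraries farthest from the median of Uhrf1. For Dnmt1 r was 0.734 and rho 0.690, but r was 0.0788 without the same 2 libraries, which were the highest and the lowest for both genes. The sum of 15 G2/M genes gave r of 0.922 with Uhrf1 and 0.884 with Dnmt1 (0.756 and 0.472 without the 2 libraries). These are descriptions over n = 8 libraries that share depth and scaling, and the 2 sums were themselves correlated (r = 0.945).

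Mki67, the proliferation marker of the G2/M list, was the 1 gene of that list that edgeR called. It was at 19.8, 23.6, 31.8 and 41.4 CPM in the libraries labelled Alox15-/- and at 57.1, 75.9, 194 and 51.2 CPM in WT, a log2 fold change of -1.69 (SE 0.359, adjusted p = 0.0270, edgeR). The G2/M sum, 1047 to 1518 CPM against 939 to 1994 in WT, overlapped between the groups (p = 0.657, exact permutation). WT 3 was thus the highest library for Mki67, Dnmt1, Uhrf1 and both sums, and it also had the largest total count.

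**Figure D3:**
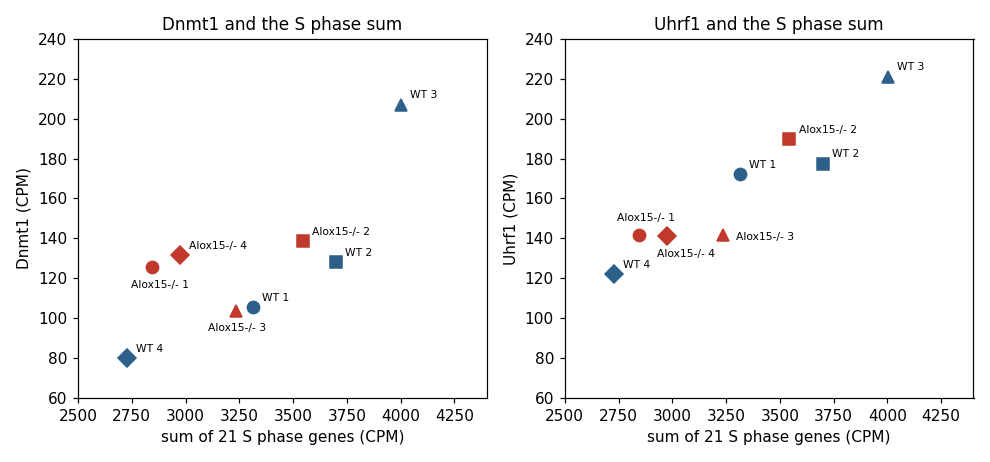
Level of Dnmt1 (left) and Uhrf1 (right) on the y axes against the summed level of 21 S phase genes on the x axes, all in TMM-scaled CPM with axes that do not start at 0, for 4 WT libraries (blue) and 4 libraries labelled Alox15-/- (red). Uhrf1 is higher where the sum is higher across both groups, whereas the points of Dnmt1 follow it mainly through WT 3 and WT 4.

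Among the 9 genes themselves, 5 of 36 pairs had r above 0.5 over the 8 libraries and 1 had r under -0.5, with a median r of 0.0754. Dnmt3a and Tet1 gave the highest value (r = 0.889, rho = 0.952, and r = 0.833 without the library labelled Alox15-/- 1 and WT 4). Dnmt1 and Uhrf1 followed with r of 0.816, which was 0.283 without WT 3 and WT 4. Tet2 and Tet3 had r of 0.792, which was 0.313 without the libraries labelled Alox15-/- 1 and 3.

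The ratios between writers and erasers overlapped between the groups. Since each gene's tags are counted at its own 3′ end, a ratio is read here only between libraries. Uhrf1 over Dnmt1 was 1.07 to 1.37 in the libraries labelled Alox15-/- against 1.07 to 1.63 in WT. The summed de novo enzymes over Dnmt1 ran from 0.356 to 0.614 against 0.307 to 1.07, and Tet2 over Tet3 from 0.297 to 0.453 against 0.277 to 0.427. The sum of the 3 DNMT genes over that of the 3 TET genes was 2.14 to 3.01 in the libraries labelled Alox15-/- against 2.41 to 4.18 in WT, and the de novo and DNMT to TET ratios were highest in a WT library.

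The gene whose level was most like that of each member over the 8 libraries, among those with a mean of at least 10 CPM, was Add1 for Dnmt1 (r = 0.974), Kntc1 for Uhrf1 (r = 0.989), Ptpn22 for Dnmt3a (r = 0.946) and Jakmip1 for Dnmt3b (r = 0.975). It was mt-Nd6 for Tet1 (r = 0.959), Impact for Tet2 (r = 0.976), Hdac4 for Tet3 (r = 0.991), Gm2546 for Mbd2 (r = 0.943) and Tomm40 for Tdg (r = 0.987). With 8 libraries and 9320 candidate genes such values are usual, since the median best r of any gene was 0.968.

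The wider machinery around the 9 enzymes was described with 6 lists of 80 genes, of which 74 were tested. edgeR, DESeq2 and limma-voom each called 0 of the 74 (edgeR called 1.24% of all tested genes). At an unadjusted p under 0.05 there were 10 (13.5%, beside 7.84% of all tested genes), of which 3 had estimates above 0 and 7 below, and the 74 had a median log2 fold change of -0.084. Groups did not overlap for 5 of the 74 (6.76%, beside 5.25%).

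Among 12 partners of maintenance methylation, 0 had an unadjusted p under 0.05. The estimates ran from -0.25 for Cdca7, which activates the remodeler HELLS, to 0.075 for Dmap1, a DNMT1-associated protein, and 11 of 12 were below 0. Of all 12700 tested genes 6578 were below 0, and of the 21 S phase genes 18 were. PCNA, the sliding clamp that holds DNMT1 at the fork, had 448 to 686 CPM over all 8 libraries.

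Of 10 tested cofactors of de novo methylation and heterochromatin, 9 had estimates below 0 and 3 had an unadjusted p under 0.05. Suv39h2, a histone H3 lysine methyltransferase, was at 7.24, 11.4, 8.51 and 6.33 CPM in the libraries labelled Alox15-/- and at 12.7, 15.1, 11.9 and 10.9 CPM in WT, with 1 library labelled Alox15-/- inside the WT range (log2 fold change -0.62, SE 0.204, adjusted p = 0.315, edgeR). Ehmt2, also a histone H3 lysine methyltransferase, was at 62.0, 68.7, 70.9 and 66.8 CPM against 80.6, 89.2, 98.1 and 75.1 CPM in WT without overlap (log2 fold change -0.36, SE 0.109, adjusted p = 0.237, edgeR). The third, the corepressor Trim28, had a log2 fold change of -0.23 (adjusted p = 0.604, edgeR), and the highest estimate of the list was 0.057 for Trdmt1, a methyltransferase of tRNA.

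The readers of methylated and unmethylated CpGs were mixed in direction, with 6 of 13 tested genes above 0. Cxxc5, which binds unmethylated CpGs, had the largest estimate of all 74 genes at 1.40 (SE 0.424, adjusted p = 0.230, edgeR) on only 5 to 17 reads per library. Its level was 2.66, 4.61, 3.21 and 2.45 CPM in the libraries labelled Alox15-/- and 0.941, 0.801, 0.706 and 2.73 CPM in WT, where replicate 4 fell inside the range of the other group. Zbtb33, which binds methylated DNA as Kaiso, had the lowest estimate of the list at -0.33 (adjusted p = 0.654, edgeR).

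NuRD is the complex that MBD2 brings to methylated DNA, and 0 of the 9 other subunits in this list were called. Estimates were below 0 for 7 and above 0 for 2. An unadjusted p under 0.05 was found for 3 of 9 (33.3%), 1 above 0 and 2 below, beside 7.84% of all tested genes. The NuRD subunits Hdac1 and Hdac2 were counted with maintenance and Mbd3 with the readers, at unadjusted p of 0.170, 0.263 and 0.536 (edgeR). Mta1 was at 134 to 142 CPM in the libraries labelled Alox15-/- and 153 to 174 CPM in WT, and its paralog Mta2 at 142 to 146 against 154 to 177 CPM, both without overlap (log2 fold changes -0.25 and -0.24, adjusted p = 0.441 and 0.481, edgeR). Chd3, an ATP-dependent remodeler of the complex, was at 161 to 200 CPM against 103 to 187 CPM in WT (log2 fold change 0.41, SE 0.151, adjusted p = 0.439, edgeR). Only its WT replicate 3 lay within the range of the libraries labelled Alox15-/-.

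Base excision repair, deamination and related genes gave 8 estimates above and 8 below 0 among 16 tested. Gadd45g, of a family linked to active demethylation, was at 6.03, 5.43, 3.78 and 4.03 CPM in the libraries labelled Alox15-/- and at 2.35, 2.08, 3.73 and 1.68 CPM in WT from 8 to 37 reads (log2 fold change 0.88, SE 0.302, adjusted p = 0.358, edgeR). Lig3, a ligase of the repair pathway, was at 20.4 to 29.5 CPM against 30.1 to 35.5 CPM in WT (log2 fold change -0.31, SE 0.136, adjusted p = 0.582, edgeR). Neither gene's groups overlapped (2 of the 16 tested genes, 12.5%, beside 5.25% of all tested genes), but both gaps were narrow. The nearest libraries of the 2 groups were at 3.78 and 3.73 CPM for Gadd45g and at 29.5 and 30.1 CPM for Lig3.

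Enzymes that make or use the cofactors of methylation and TET activity included 1 of 14 genes with an unadjusted p under 0.05. Ahcy, which clears S-adenosylhomocysteine, the product that inhibits methyltransferases, was at 127, 177, 161 and 138 CPM in the libraries labelled Alox15-/- and at 175, 192, 203 and 179 CPM in WT, overlapping only in replicate 2 of the first group (log2 fold change -0.31, SE 0.113, adjusted p = 0.423, edgeR). The highest estimate was 0.20 for D2hgdh, which removes D-2-hydroxyglutarate, an inhibitor of TET enzymes.

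**Figure D4:**
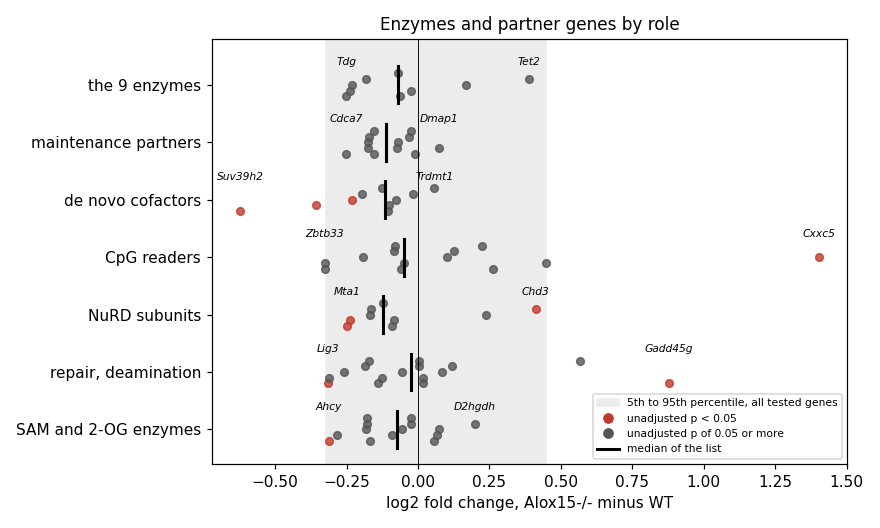
Log2 fold change (x axis, libraries labelled Alox15-/- minus WT, n = 4 per group) of the 9 enzymes and of 74 partner genes in 6 role groups (y axis), with 1 point per tested gene, black bars at list medians and red points at an unadjusted p under 0.05. The grey band spans the 5th to 95th percentile of all tested genes. Named points are the lowest and highest of each row. Of the partner genes, 4 lie below the band (Suv39h2, Ehmt2, Zbtb33 and Kdm2b) and 4 above it (Cxxc5, Gadd45g, Smug1 and Mbd6).

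The Treg genes and the germline genes that passed the filter were examined as well, and edgeR called 0 of them. Their mRNA is not a measure of methylation, which was not measured here. Foxp3 was at 71.7, 95.5, 93.0 and 114 CPM in the libraries labelled Alox15-/- and at 109, 102, 195 and 93.4 CPM in WT. The groups overlapped, and WT 3 stood far above the other 7 libraries. The log2 fold change was -0.42 (SE 0.203, unadjusted p = 0.0557, adjusted p = 0.655, edgeR). The other 5 Treg genes gave estimates of -0.12 for Il2ra, 0.098 for Ctla4, -0.11 for Ikzf2, -0.10 for Ikzf4 and -0.060 for Tnfrsf18, none at an unadjusted p under 0.05.

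Of 20 genes of the germline program, many of which DNA methylation is known to keep silent in somatic cells, 15 were in the table. Stk31 was not silent here, at 17.1 to 22.3 CPM in the libraries labelled Alox15-/- and 17.6 to 23.4 CPM in WT, and no other gene of the list was above 5.16 CPM in any library. Only Stk31, Tex11 and Brdt passed the filter, and edgeR called 0 of these 3 and found 0 at an unadjusted p under 0.05.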

How the data were processed

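The authors' deposited table holds unnormalized read counts by gene symbol for 4 libraries labelled Alox15-/- and 4 labelled WT. The submitters' processing notes name Bowtie, edgeR and GRCm38, and the labels say that reads were cleaned and trimmed. The removal of duplicate reads and the use of strand are not given in the sources used here. A gene was tested if 4 or more libraries reached 2 CPM on the unscaled total count, whereas printed CPM are TMM-scaled over the tested genes. The test was the quasi-likelihood test of edgeR 4.0.16 in R 4.3.3 with TMM scaling and no term beside the group, with Benjamini–Hochberg adjustment over 12700 genes and a threshold of 0.05. The common biological coefficient of variation was 14.5%. The filter, edgeR and the adjustment follow the study's methods. The fit was checked on simulated data before use. Alternatives were other scalings, filters, DESeq2 1.42.0, limma-voom (limma 3.58.1), a replicate block and each library left out. Sums of marker genes were compared with exact permutation tests.

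Gene positions are those of GENCODE on GRCm38, promoters came from RefSeq (GRCm38.p6), and near-identical copies were sought with blastn 2.17.0. Genes named are the 9 members, Alox15, the highest and lowest estimate of each role list, the Treg genes, the nearest gene of each member and Cd3e, Cd4, Foxp3 and Mki67. Further genes at an unadjusted p under 0.05, Pcna, Hdac1, Hdac2, Mbd3, Kdm2b, Smug1 and Mbd6 were named after their values were seen. So were the germline genes and the other T cell, NK and γδ T cell genes. The members and lists were chosen with earlier results of these data known. Libraries of a group differed by more than sampling noise, and all 8 count columns were used.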

Additional observations from a re-analysis of the deposited data

Results flagged for a closer look

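Of 28 groups of 4 libraries examined for a library far from the others (by the ratio of its gap to the group's range), 3 exceeded Dixon's critical value for 4 samples, where chance flags about 1 in 20 groups. Uhrf1 in the libraries labelled Alox15-/- had a ratio of 0.988, from 190 CPM in replicate 2. Tet2 in WT had a ratio of 0.897, from 18.3 CPM in replicate 4. Foxp3 in WT had a ratio of 0.844, from 195 CPM in replicate 3.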

How the results depend on the processing

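Under 16 alternatives, 0 of the 9 enzymes passed the adjusted threshold (lowest adjusted p 0.491, Uhrf1 without WT 4), and the median of the 9 stayed below 0, between -0.025 (without WT 3) and -0.16 (without WT 1). The number at an unadjusted p under 0.05 became 1 without a filter on low counts (Tet2) and ran from 0 to 2 with 1 library left out (Dnmt3a without the library labelled Alox15-/- 1, Tet2 without that labelled Alox15-/- 3, Uhrf1 and Tet2 without WT 4). The number of all genes called was 388 without the filter, which put 28239 genes to the test, and ran from 86 (without the library labelled Alox15-/- 2) to 172 with 1 left out, with 95 and 93 without the libraries labelled Alox15-/- 1 and 3 and 105 without WT 2. Among the 74 partner genes the number called ran from 0 to 1 with 1 library left out (Chd3 without WT 3, Cxxc5 without WT 4). Signs turned for 3 enzymes. Dnmt1 ran from -0.24 to 0.26 with 1 library left out (above 0 without WT 3 or the library labelled Alox15-/- 3), Dnmt3b from -0.23 to 0.038 (above 0 without WT 3 or the libraries labelled Alox15-/- 2 or 3), and Mbd2 was 0.0031 with upper-quartile scaling, and the cause was not tested.

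Same-numbered libraries of the 2 groups deviated from their group means with correlations of 0.0691, 0.165, -0.178 and -0.0177, so the numbers did not pair them, and of the 4 libraries labelled Alox15-/- only replicate 2 correlated best with its own number. With a replicate block Dnmt1 was at 0.019 (adjusted p = 0.992, edgeR), and the block left the 9 at 0 calls and all genes at 146. The overlap of Tdg under other scalings was examined after seeing the data. Among the 9 enzymes, Tet1 rested on the fewest reads (17 to 52 per library), followed by Dnmt3b (30 to 126).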
